A study of Mus musculus with 6 samples.

Results

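The genes described are the cyclins that act at G2/M, their kinase Cdk1 and the genes that switch the kinase on and off, in mouse 3T3 fibroblasts after inhibition of the lncRNA Ntep. They were chosen by name, as Ccnb1, Ccnb2, Ccna2, Ccnf, Cdk1, Cdc25a, Cdc25b, Cdc25c, Wee1 and Foxm1, and every probe that the array files give one of these 10 gene names was kept. This gave 15 of the 55681 probes on the array, for 10 of the 22942 genes that could be named. Of the 10 genes, 7 had 1 probe, Foxm1 had 2, and Ccnb1 and Cdk1 had 3 each. 3T3 is an established line of mouse embryonic fibroblasts. Cells of 1 group received GapmeR Ntep, a short antisense oligonucleotide through which RNase H cuts the transcript of Ntep, and cells of the other group received GapmeR control, both at 50 nM for 48 h. Each group had 3 arrays, 1 from each of 3 independent experiments, and the arrays of 1 experiment came from cells cultured on the same day. Both groups therefore carried an oligonucleotide, and no untreated cells were on these arrays.

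Entry into mitosis is driven by CDK1 bound to B-type or A-type cyclins. WEE1 and its relative PKMYT1 hold the complex inactive by phosphorylating CDK1, and the CDC25 phosphatases remove these phosphates. Most of these genes are transcribed late in the cycle, under MuvB complexes and FOXM1, so that their transcript levels in a growing culture also follow the share of cells in G2 and M. The anaphase-promoting complex destroys the cyclins in mitosis.

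Signals are quantile-normalized intensities in arbitrary units, and differences are log2 GapmeR Ntep minus GapmeR control with the 95% confidence interval of limma. Signals of different probes cannot be set against each other, because each probe hybridizes differently. The arrays measured whole cultures, in which fewer cells of a kind and less RNA per cell cannot be told apart. Before scaling, the 75th percentile of the signals ran from 946 to 1347, and from 43.7% to 53.3% of the probes were well above background. The Ntep probe (A630089N07Rik, mm9 chr16:98283712-98283771) gave 472, 91.5 and 226 in experiments 1 to 3 with GapmeR Ntep and 271, 272 and 361 with GapmeR control. In experiment 1 it thus stood higher on the array labelled GapmeR Ntep, and over all arrays the difference was -0.48 (limma adjusted p = 0.632, exact permutation p = 0.7). The summed signal of 9 fibroblast markers was 555700 to 737300 with GapmeR Ntep and 808000 to 891100 with GapmeR control. Pdgfra gave 448 to 3357 and Pdgfrb 1946 to 5255, so that these 2 add little to the sum. Of the 9, 8 were lower with GapmeR Ntep and 1 was higher, with a median difference of -0.47. None passed an adjusted p of 0.05 in either direction, although 2, the collagens Col1a2 and Col3a1, were lower at an unadjusted p under 0.05 (limma).

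No member probe reached an adjusted p of 0.05 (lowest values 0.0517 and 0.0525, both for Ccnb1), while 5.30% of the 30990 probes tested did (limma with Benjamini-Hochberg adjustment). With the experiments as a replicate block, which the shared culture days allow, 2 member probes did, both of Ccnb1, while the share of all probes was 13.8%. At an unadjusted p under 0.05, 4 member probes were higher and 1 was lower with GapmeR Ntep, where 12.5% of all probes were higher and 12.5% lower. All 15 passed the filter on dim probes. By the rule of the study's methods, at least 2-fold and an unadjusted p under 0.01, 1 member probe passed, a Ccnb1 probe that was higher, against 3.08% of all probes in that direction. The 2 groups did not overlap at 5 member probes that were higher, where 17.0% of all probes were so separated, and at 3 that were lower, where 15.1% were. The median difference was 0.29 over the member probes and 0.06 over all probes tested. With 3 arrays against 3, an exact permutation test of 1 probe cannot fall below 0.1.

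**Figure D1:**
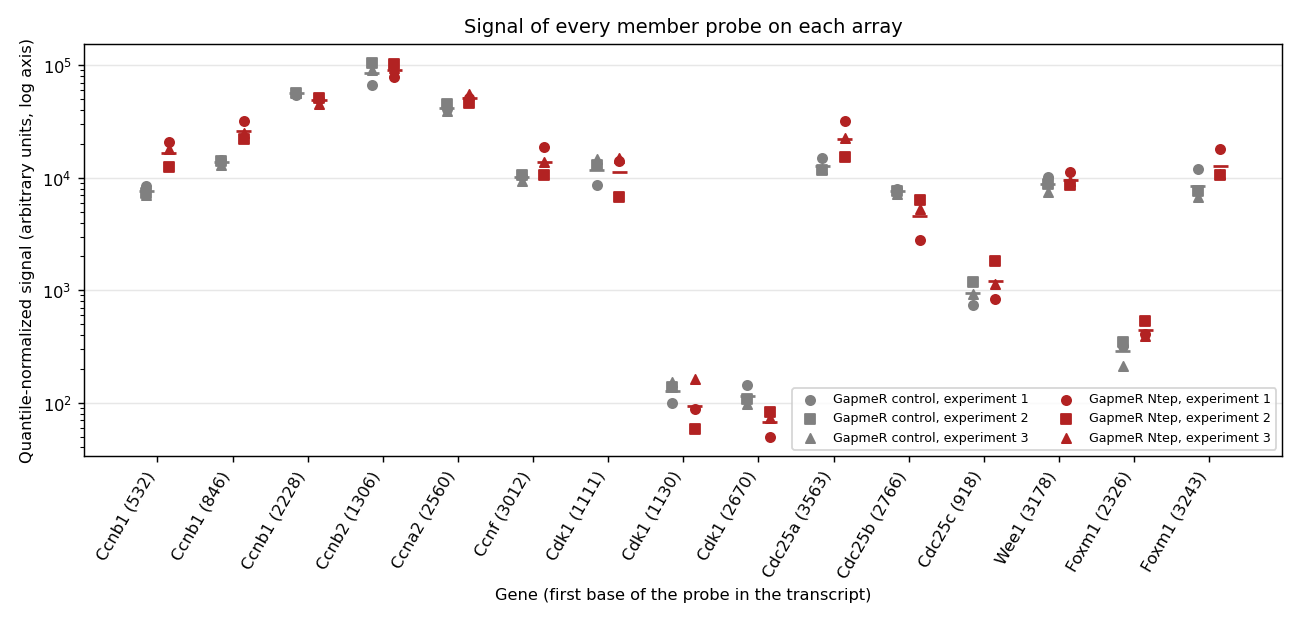
Quantile-normalized signal (arbitrary units, log axis) of each of the 15 member probes on each of the 6 arrays, grey for GapmeR control and red for GapmeR Ntep, with the symbol giving the experiment and the short line the geometric mean of the group. The Ccnb1 probes at bases 532 and 846 are higher on all 3 GapmeR Ntep arrays than on any control array, whereas the Ccnb1 probe at base 2228 is lower on all 3.

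Ccnb1 encodes cyclin B1, the main partner of CDK1 at mitotic entry, and its 3 probes did not behave alike. All 3 were designed on the spliced transcript, of a gene on the minus strand of chromosome 13, and are taken here from 5′ to 3′. The probe at base 532 is at mm9 chr13:101553449-101553508, the probe at base 846 at mm9 chr13:101551224-101551283 and the probe at base 2228 at mm9 chr13:101548722-101548781. The first 2 are shown because they carry the rise of Ccnb1 relative to its 3′ probe. Both are in lower case throughout, 5′ to 3′ in the sense of the transcript, and each is free of stop codons in 1 of its 3 forward frames.
Ccnb1 probe at base 532: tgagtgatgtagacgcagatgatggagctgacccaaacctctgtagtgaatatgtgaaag
Ccnb1 probe at base 846: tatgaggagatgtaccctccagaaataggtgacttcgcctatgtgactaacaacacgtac

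The probe at base 532 gave 20900, 12500 and 17970 in experiments 1 to 3 with GapmeR Ntep. With GapmeR control it gave 8448, 7266 and 7032. All 3 GapmeR Ntep arrays were above all 3 controls, and the arrays of experiment 2 were closest to each other. The difference was 1.15 (0.56 to 1.73), or 2.22-fold, with an unadjusted p of 0.0029 and an adjusted p of 0.0517 (limma). The study's own list of regulated probes from these arrays holds it too, so its pass by that rule is not independent evidence. The file also ties this probe to the record of Gm5593, a predicted gene model, so that its signal cannot be assigned to Ccnb1 alone.

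The probe at base 846 gave 32040, 22320 and 25250 with GapmeR Ntep and 14490, 14000 and 13040 with GapmeR control. Again the groups did not overlap, and the difference was 0.92 (0.45 to 1.40), or 1.90-fold (limma adjusted p = 0.0525). These were the probes that passed with the replicate block, at an adjusted p of 0.0391 for base 532 and 0.0433 for base 846 (limma). Both calls depended on the settings. With both arrays of experiment 1 left out, a choice made after the data had been seen, the adjusted p-values were 0.0832 and 0.0713 (limma), at differences of 1.07 and 0.81.

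The probe at base 2228, the one nearest the 3′ end, gave 50290, 51540 and 45340 with GapmeR Ntep and 54950, 56960 and 57280 with GapmeR control. Here every GapmeR Ntep array was below every control array. The difference was small, -0.20 (-0.58 to 0.17), and it missed the threshold (limma adjusted p = 0.452). With the arrays scaled to their 75th percentile it was 0.006, on a scale where the median of all probes moved from 0.06 to 0.22, so that relative to that median it was -0.22.

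The disagreement between the Ccnb1 probes was tested on the ratio of probes within each array. The log2 ratio of the probe at base 532 to the probe at base 2228 was -1.27, -2.04 and -1.34 with GapmeR Ntep and -2.70, -2.97 and -3.03 with GapmeR control. It rose by 1.35 (0.74 to 1.96), or 2.55-fold (limma adjusted p = 0.0441 over 5120 pairs of probes of 1 gene). For the probe at base 846 the ratio was -0.65, -1.21 and -0.84 with GapmeR Ntep and -1.92, -2.02 and -2.14 with GapmeR control. It rose by 1.13 (0.68 to 1.58), or 2.18-fold (limma adjusted p = 0.0359). Both ratios were higher in all 3 experiments, and the groups did not overlap. With 75th percentile scaling in place of quantile normalization they rose by 1.24 and 1.06 (limma adjusted p = 0.0435 and 0.0356). Of all 5120 pairs, 4.45% passed, and of the 5 pairs among the members these 2 passed; they share the probe at base 2228 and are not independent. Both calls were lost when 1 array was left out, unless it was GapmeR Ntep of experiment 2. Leaving out GapmeR control of experiment 1, 2 or 3 gave adjusted p-values of 0.075, 0.173 and 0.175 for base 532 and of 0.0703, 0.156 and 0.157 for base 846, and leaving out GapmeR Ntep of experiment 1 or 3 gave 0.0946 and 0.127 for base 532 and 0.0743 and 0.11 for base 846 (limma).

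A probe that is no member lies between the last 2 Ccnb1 probes. It carries the name Gm5593, at mm9 chr13:101549520-101549579 on the same strand, and holds the letters AATAAA, the usual polyadenylation signal, from base 33 of its 60 bases. It gave 128400, 87640 and 106000 with GapmeR Ntep and 61890, 69960 and 62260 with GapmeR control, with no overlap. The difference was 0.72 (0.23 to 1.20; limma adjusted p = 0.0926). Its log2 ratio to the Ccnb1 probe at base 2228 was 1.35, 0.77 and 1.23 with GapmeR Ntep and 0.17, 0.30 and 0.12 with GapmeR control, 0.92 apart on average (exact permutation p = 0.1, the smallest possible). Of the 4 probes at this locus, the 3 on the 5′ side were thus higher with GapmeR Ntep in every experiment and the 1 at the 3′ end was lower. The part of the Gm5593 record in the Ccnb1 signals was not tested.

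**Figure D2:**
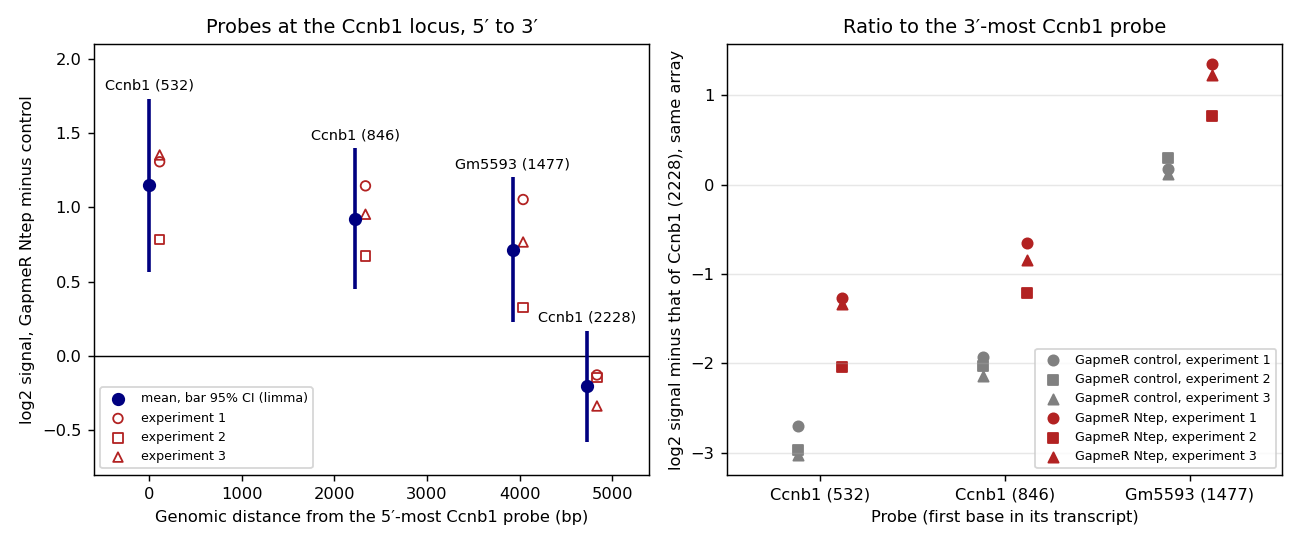
Left, difference in log2 signal (GapmeR Ntep minus GapmeR control) of 4 probes at the Ccnb1 locus against their genomic distance in bp from the 5′-most Ccnb1 probe, with the 95% confidence interval of limma as bar and the 3 experiments as open symbols. Right, log2 signal of 3 of these probes minus that of the Ccnb1 probe at base 2228 on the same array, where the GapmeR Ntep arrays (red) lie above the control arrays (grey) for every probe.

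The other cyclins had 1 probe each and differed less. Ccnb2, a B-type cyclin that acts beside cyclin B1, gave 78250, 103500 and 95470 with GapmeR Ntep and 66680, 105500 and 91480 with GapmeR control at mm9 chr9:70255671-70255730. The groups overlapped and the difference was 0.09 (-0.49 to 0.66; limma adjusted p = 0.84). Ccna2 encodes cyclin A2, which serves in S phase and until early mitosis, and its probe lies at mm9 chr3:36463978-36464037. It gave 50870, 46590 and 56050 with GapmeR Ntep and 40880, 45460 and 39010 with GapmeR control. The groups were separate by a narrow margin, that between the arrays of experiment 2, and the difference of 0.29 (-0.12 to 0.70) missed the threshold (limma adjusted p = 0.331).

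Ccnf encodes cyclin F, which does not bind a CDK but serves as the substrate receptor of a ubiquitin ligase. At mm9 chr17:24360204-24360263 it gave 18750, 10510 and 13750 with GapmeR Ntep and 10440, 10610 and 9277 with GapmeR control. It was higher in experiments 1 and 3 and level in experiment 2, and the difference was 0.47 (-0.14 to 1.07; limma adjusted p = 0.302). Without GapmeR Ntep of experiment 1 it was 0.25. The intervals of Ccnb2, Ccna2 and Ccnf all include 0, and those of Ccnb2 and Ccna2 exclude a doubling.

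Cdk1, the kinase itself, had 3 probes, on the minus strand of chromosome 10. The probes at bases 1111 (mm9 chr10:68801072-68801131) and 1130 (mm9 chr10:68801053-68801112) share 41 of their 60 bases. Base 1111 gave 14070, 6747 and 14960 with GapmeR Ntep and 8649, 13030 and 14620 with GapmeR control. The direction differed between experiments, with log2 differences of 0.70, -0.95 and 0.03, and the difference of the means was -0.07 (-1.001 to 0.86; limma adjusted p = 0.923). Its sign turned to 0.30 without GapmeR Ntep of experiment 2 and to 0.08 without GapmeR control of experiment 3. With 75th percentile scaling it was 0.04, or -0.19 relative to the median of all probes on that scale. The interval holds a halving as well as a rise, and no direction is given.

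The other Cdk1 probes were dim. Base 1130 gave 87.2, 57.9 and 162 with GapmeR Ntep and 99.8, 137 and 154 with GapmeR control, a difference of -0.46 (-1.45 to 0.54; limma adjusted p = 0.516). Base 2670 (mm9 chr10:68799513-68799572) gave 49.1, 82.5 and 73.1 with GapmeR Ntep and 142, 107 and 96.4 with GapmeR control. There the groups did not overlap, at a difference of -0.77 (-1.43 to -0.11; limma adjusted p = 0.15), but this probe was well above background on only 4 of the 6 arrays. Neither ratio to base 1111 within arrays passed the test (limma adjusted p = 0.423 for base 1130 and 0.58 for base 2670), with intervals of -0.94 to 0.17 and -2.09 to 0.69.

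The 3 CDC25 phosphatases, which activate CDK1 by removing inhibitory phosphates, pointed in different directions. Cdc25a, which also acts at the start of S phase, gave 31940, 15260 and 22420 with GapmeR Ntep and 15040, 11610 and 12020 with GapmeR control at mm9 chr9:109796331-109796390. The groups were separate, though GapmeR Ntep of experiment 2 stood just above GapmeR control of experiment 1. The difference was 0.79 (0.05 to 1.53; unadjusted p = 0.0396, limma adjusted p = 0.176). Cdc25b, the family member tied to the first activation of CDK1 at the centrosome, gave 2813, 6388 and 5305 with GapmeR Ntep and 7940, 7612 and 7172 with GapmeR control at mm9 chr2:131023911-131023970. It was lower in all 3 experiments, most in experiment 1, at a difference of -0.73 (-1.53 to 0.07; limma adjusted p = 0.233). Without both arrays of experiment 1 the difference was -0.34 (limma adjusted p = 0.27), and without GapmeR Ntep of experiment 1 alone it was -0.38. Cdc25c, at mm9 chr18:34903648-34903707, gave 843, 1806 and 1144 with GapmeR Ntep and 742, 1189 and 928 with GapmeR control. It was higher within each experiment, yet the groups overlapped (difference 0.36, -0.46 to 1.19; limma adjusted p = 0.53). Its size depended on single arrays, from 0.07 without GapmeR Ntep of experiment 2 to 0.62 without GapmeR Ntep of experiment 1.

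Wee1, the kinase that opposes CDC25, gave 11270, 8549 and 9290 with GapmeR Ntep and 10220, 8859 and 7439 with GapmeR control at mm9 chr7:117286573-117286632. The groups overlapped, and the interval of the difference, 0.14 (-0.36 to 0.64), left out a doubling and a halving (limma adjusted p = 0.703).

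Foxm1, a transcription factor of many G2/M genes, had 2 probes on chromosome 6. Base 2326 (mm9 chr6:128323866-128323925) gave 411, 530 and 392 with GapmeR Ntep and 319, 347 and 212 with GapmeR control, with no overlap and a difference of 0.62 (0 to 1.24; unadjusted p = 0.0499, limma adjusted p = 0.2). Base 3243 (mm9 chr6:128324783-128324842) gave 17960, 10560 and 10910 with GapmeR Ntep and 12020, 7667 and 6692 with GapmeR control. There the groups overlapped, because the control array of experiment 1 exceeded the other GapmeR Ntep arrays, at a difference of 0.58 (-0.21 to 1.37; limma adjusted p = 0.319). Both probes were higher with GapmeR Ntep in each of the 3 experiments, but the sizes rested on single arrays. Base 3243 differed by 0.33 without GapmeR Ntep of experiment 1, and base 2326 by 0.41 without GapmeR control of experiment 3. The ratio of the 2 probes differed by 0.04 between the groups (-0.82 to 0.90; limma adjusted p = 0.973).

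**Figure D3:**
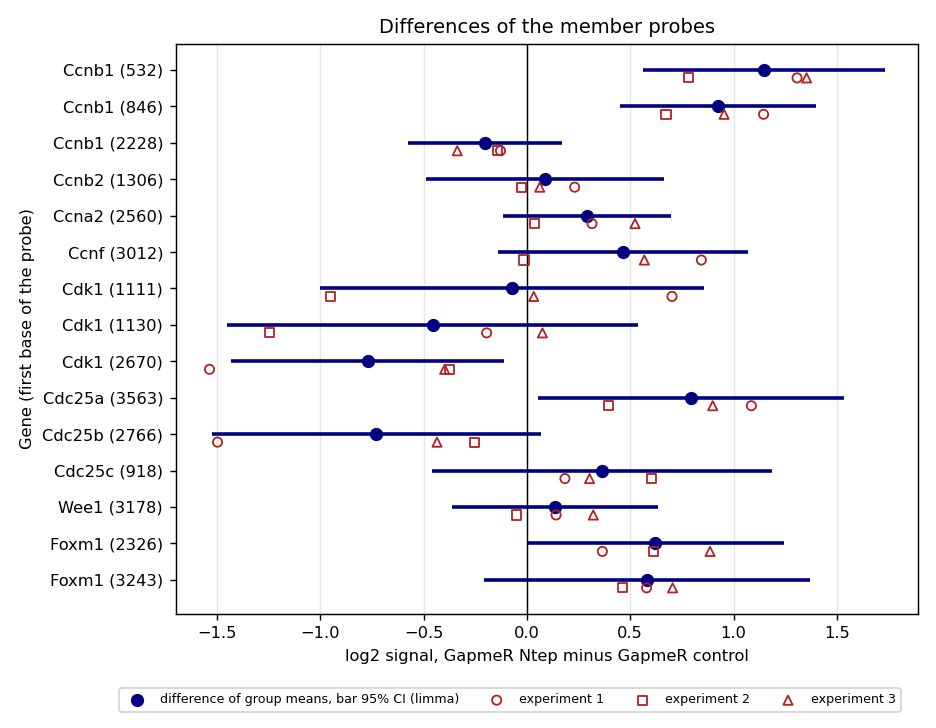
Difference in log2 signal, GapmeR Ntep minus GapmeR control, of the 15 member probes, with filled circles for the difference of the group means, bars for the 95% confidence interval of limma and open symbols for the 3 experiments. The differences of Ccnb1 at bases 532 and 846 lie highest, with intervals from 0.56 to 1.73 and from 0.45 to 1.40. The open squares of experiment 2 fall on the low side at most probes of the cyclins.

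The promoters are shown for Ccnb1, whose probes disagreed, for Cdc25a and Cdc25b, whose probes lay on opposite sides of the controls, and for Cdk1, the kinase itself. RefSeq sequences of GRCm38.p6, from 250 bases before to 50 after the start site, were at hand for 6 of the 10 genes (Ccnb1, Ccnb2, Ccnf, Cdk1, Cdc25a and Cdc25b). They are given 5′ to 3′ on the strand of the gene. Capitals mark CCAAT, the letters bound by NF-Y; TTTGAA, its variant TTCGAA and the further variant TTTAAA, forms of the cell cycle genes homology region (CHR) bound by MuvB complexes; and TTTCCCGC, TTTCGCGC, TTTGCCGC and TTTGGCGC, forms of the E2F site. All were sought on both strands, so that ATTGG also marks CCAAT.
Ccnb1, chr13:100786437-100786736, minus strand: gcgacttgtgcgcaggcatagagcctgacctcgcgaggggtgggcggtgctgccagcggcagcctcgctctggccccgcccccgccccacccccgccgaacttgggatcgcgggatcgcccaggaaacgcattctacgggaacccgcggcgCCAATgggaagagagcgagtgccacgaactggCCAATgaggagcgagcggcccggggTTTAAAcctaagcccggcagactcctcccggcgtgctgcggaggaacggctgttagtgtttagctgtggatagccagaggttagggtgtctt
Cdk1, chr10:69352863-69353162, minus strand: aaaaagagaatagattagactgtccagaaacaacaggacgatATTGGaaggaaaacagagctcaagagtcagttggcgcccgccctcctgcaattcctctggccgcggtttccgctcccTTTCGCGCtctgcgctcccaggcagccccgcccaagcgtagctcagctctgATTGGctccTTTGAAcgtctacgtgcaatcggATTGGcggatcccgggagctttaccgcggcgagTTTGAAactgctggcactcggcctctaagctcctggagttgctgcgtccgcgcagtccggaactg
Cdc25a, chr9:109875329-109875628, plus strand: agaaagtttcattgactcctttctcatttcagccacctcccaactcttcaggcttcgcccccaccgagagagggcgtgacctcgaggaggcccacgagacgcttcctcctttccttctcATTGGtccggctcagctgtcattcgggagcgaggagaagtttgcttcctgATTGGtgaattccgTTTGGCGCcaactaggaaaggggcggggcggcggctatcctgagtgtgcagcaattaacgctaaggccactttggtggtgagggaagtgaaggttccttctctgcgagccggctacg
Cdc25b, chr2:131186698-131186997, plus strand: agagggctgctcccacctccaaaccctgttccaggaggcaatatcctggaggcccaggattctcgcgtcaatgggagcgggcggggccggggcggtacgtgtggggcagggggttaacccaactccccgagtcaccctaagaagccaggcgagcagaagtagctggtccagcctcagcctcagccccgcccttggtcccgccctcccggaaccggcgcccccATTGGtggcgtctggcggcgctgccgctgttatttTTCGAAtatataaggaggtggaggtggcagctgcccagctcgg

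The Ccnb1 promoter holds CCAAT at -99 and -67 and TTTAAA at -42, counted from the start site to the first base of the match. In Cdk1 the matches are ATTGG at -208, -80 and -48, TTTGAA at -71 and -15, and TTTCGCGC at -131. Cdc25a has ATTGG at -131 and -81 and TTTGGCGC at -67, and no CHR letters in this window. Cdc25b has ATTGG at -28 and TTCGAA at 8. Over the 6 members with a sequence, 6 held CCAAT, 5 a form of the CHR and 2 a form of the E2F site. Of all 32851 promoters of the table, 37.4% held CCAAT, 28.8% a form of the CHR and 2.26% a form of the E2F site.

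Around the members, 5 lists of genes of the same pathway were counted, each gene by its brightest probe. Over all 15242 genes tested, 2.32% were called higher and 3.68% lower with GapmeR Ntep at an adjusted p of 0.05 (limma), and the median difference was 0.003. At an unadjusted p under 0.05, 13.0% were higher and 15.1% lower. The 5 list medians lay between 0.14 and 0.25, and 3 genes in all were called, Anapc16, Btrc and Racgap1.

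Of the kinases and phosphatases that act on CDK1-cyclin B, 14 of 14 were tested and 0 were called, with a median of 0.17 (limma; 2 higher and 2 lower at an unadjusted p under 0.05). Arpp19, which in its phosphorylated form blocks the phosphatase PP2A-B55, gave 381, 555 and 517 with GapmeR Ntep and 852, 1094 and 1007 with GapmeR control, a difference of -1.04 (limma adjusted p = 0.0518). The groups did not overlap. Bora, the cofactor through which Aurora A activates PLK1, differed by -0.66 and Plk1 itself by 0.66 (limma adjusted p = 0.0692 and 0.0993). Ppp2r2a, a B55 subunit, differed by 0.69 (limma adjusted p = 0.177). Mastl, the kinase of ARPP19, differed by 0.34, Aurka by 0.17 and Pkmyt1, the membrane-bound relative of WEE1, by -0.11 (limma adjusted p = 0.356, 0.526 and 0.663).

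Of the anaphase-promoting complex and its regulators, 20 of 21 were tested, and 1 was called higher and 0 lower, with a median of 0.18. At an unadjusted p under 0.05, 6 were higher and 1 lower (limma), where 13.0% of all genes were higher and 15.1% lower. Anapc16, a small subunit, gave 25850, 23000 and 24070 with GapmeR Ntep and 13810, 9871 and 10120 with GapmeR control. It rose by 1.13 (0.65 to 1.60; limma adjusted p = 0.0365), and the groups were far apart. Cdc20, the activator in mitosis, differed by 0.45 and Fzr1, the activator in late mitosis and G1, by -0.36, each with groups that did not overlap (limma adjusted p = 0.168 and 0.321). Cdc27 and Anapc7, subunits of the arm that holds the activators, differed by 0.59 and 0.52, and Anapc13 by -0.59 (limma adjusted p = 0.12, 0.107 and 0.124). A dimmer Anapc7 probe at base 2325 went the other way, at -1.20 (limma adjusted p = 0.0425), but it was well above background on only 1 of the 3 GapmeR Ntep arrays, where its signals were 35.1 to 51.7, so that the size of this difference rests on signals near background.

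Of the checkpoint genes that act on entry from G2 into M, 13 of 14 were tested, and 1 was called lower and 0 higher, with a median of 0.25. At an unadjusted p under 0.05, 4 were higher and 2 lower (limma), where 13.0% of all genes were higher and 15.1% lower. Btrc, a receptor of the ubiquitin ligase that marks WEE1 and CDC25A for destruction, gave 279, 345 and 273 with GapmeR Ntep and 671, 592 and 623 with GapmeR control. It fell by 1.08 on the log2 scale (limma adjusted p = 0.0335). A dimmer Btrc probe at base 2909, well above background on 5 of the 6 arrays, differed by -0.43 with overlapping groups (limma adjusted p = 0.417). Cdkn1a, the CDK inhibitor p21 and a target of P53, gave 20580, 10000 and 14160 with GapmeR Ntep and 7039, 5347 and 6710 with GapmeR control, a difference of 1.18 (0.44 to 1.91; limma adjusted p = 0.0768). A dim Cdkn1a probe at base 55, well above background on all 6 arrays, differed by 0.93 (limma adjusted p = 0.197). Another dim Cdkn1a probe, at base 146, passed (limma adjusted p = 0.0466). It was well above background on no control array. With each control signal raised to the lowest signal well above background on its array, the mean difference was 2.61-fold. This value is no lower limit, and experiment 2 as measured differed by 0.95 on the log2 scale. Gadd45a, which can dissociate CDK1 from cyclin B1, gave 24490, 11010 and 28810 against 8148, 5443 and 8171, a difference of 1.47 (0.48 to 2.47; limma adjusted p = 0.0912). At both genes the groups did not overlap. Chek2 differed by 0.53 (limma adjusted p = 0.119), and the Chek1 probe was well above background on 1 of the 6 arrays, so no difference is given for it.

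Of the transcriptional regulators of G2/M genes, 17 of 17 were tested and 0 were called, with a median of 0.14 (limma; 3 higher and 0 lower at an unadjusted p under 0.05). These 3 were Nfya, a subunit of the factor that binds CCAAT, at 0.70, E2f8, a repressor of the E2F family, at 1.00, and Lin52, a MuvB subunit, at 1.00 (limma adjusted p = 0.0695, 0.0702 and 0.121). A dim E2f8 probe at base 1304 stood at -0.60 (limma adjusted p = 0.384). E2f1 differed by -0.47, E2f4 by -0.60 and Mybl2 by 0.19 (limma adjusted p = 0.316, 0.484 and 0.705).

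Of the other late cell cycle genes, 26 of 27 were tested, and 1 was called lower and 0 higher, with a median of 0.16. At an unadjusted p under 0.05, 8 were higher and 3 lower (limma), where 13.0% of all genes were higher and 15.1% lower. Racgap1, a subunit of centralspindlin that is needed for cytokinesis, gave 3691, 10650 and 6618 with GapmeR Ntep and 65370, 37280 and 35350 with GapmeR control at its probe of base 2129. It fell by 2.79 on the log2 scale (-3.89 to -1.69; limma adjusted p = 0.0335). Its second probe, at base 2179, fell by 2.84 (limma adjusted p = 0.025). In contrast, Dlgap5, Tpx2 and Cdca8, which serve the mitotic spindle and the centromere, were higher by 0.81, 0.66 and 0.77, short of the threshold (limma adjusted p = 0.0511, 0.0695 and 0.0772). A second Cdca8 probe, at base 692, rose by 1.07 (limma adjusted p = 0.0341). Second probes of Dlgap5 (base 2331) and Tpx2 (base 3592) differed by 0.52 and 0.42 (limma adjusted p = 0.427 and 0.25). At the second Dlgap5 probe the groups overlapped, and experiment 2 was lower with GapmeR Ntep. Mki67, the proliferation marker Ki-67, differed by -0.84 and Birc5 by 0.01 (limma adjusted p = 0.128 and 0.986).

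**Figure D4:**
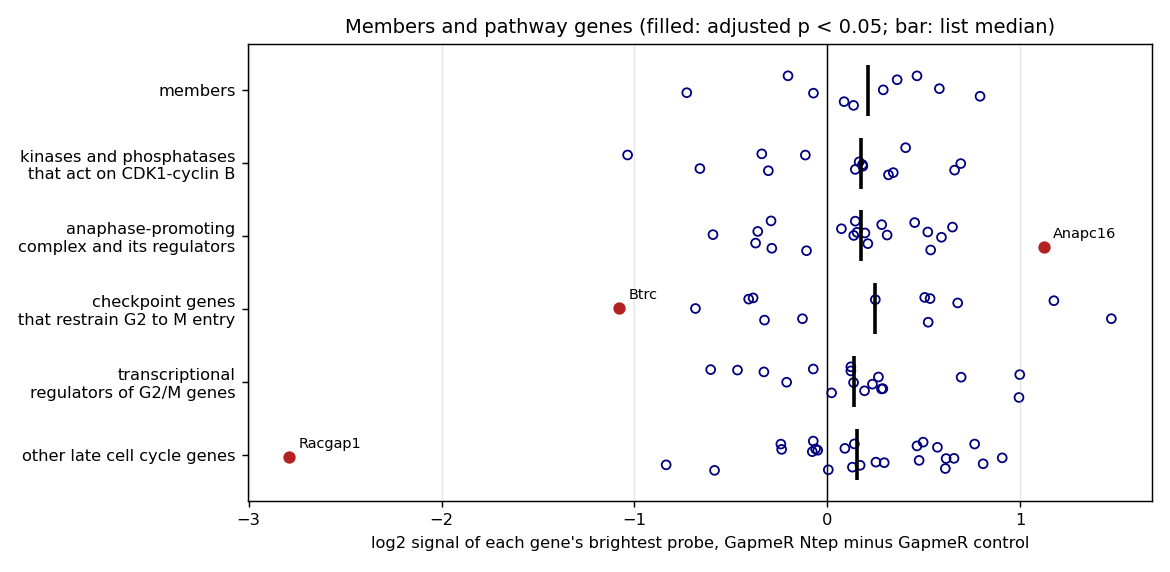
Difference in log2 signal of each gene's brightest probe, GapmeR Ntep minus GapmeR control, for the 10 members and for 5 lists of pathway genes, with black bars for list medians and filled points for an adjusted p under 0.05 (limma). The list medians lie between 0.14 and 0.25, and Racgap1 at -2.79 stands far to the left of the other genes.

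The calls of Anapc16, Btrc and Racgap1 rested on all 6 arrays. Without GapmeR control of experiment 1, 2 or 3, or without GapmeR Ntep of experiment 1 or 3, 0 of the 3 passed, and without GapmeR Ntep of experiment 2 Btrc and Racgap1 did (limma adjusted p = 0.0427 and 0.04). The direction of each was the same in all of these fits. With the experiments as a replicate block, 9 of the 90 list genes tested passed an adjusted p of 0.05, against 16.0% of all genes in that fit (limma).

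Of 6 relatives of the members, 2 were tested, Cdk2 at 0.67 and Foxn3 at -0.37 (limma adjusted p = 0.102 and 0.539). The probes of Ccna1, Ccnb3, Cdk3 and Wee2 gave at most 43.8 on any array and were not tested.

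The 5 genes most like Cdk1 across the 6 arrays, by Pearson correlation of log2 signal with its brightest probe among 15232 other genes, were Atp5k (0.984), Adh7 (0.983), Gm15421 (0.982), Tbx22 (0.981) and Tmem39a (0.980). This is a description of 6 arrays that share a slide and, in pairs, a culture day, and none of the 5 was called (limma adjusted p from 0.767 to 0.949).

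Of 5 macrophage markers, 1 passed the test. Their summed signal was 32970 to 62630 with GapmeR Ntep and 15430 to 21130 with GapmeR control. Much of it came from 1 Itgam probe, which gave 45780 of the 62630. Of the 3 tested, Cd68 rose by 1.21 (limma adjusted p = 0.0287), Itgam differed by 1.26 and Csf1r by 3.19 (limma adjusted p = 0.0881 and 0.151). Dimmer tested probes of Cd68, Itgam and Csf1r differed by 0.68, -0.03 and 0.44 (limma adjusted p = 0.143, 0.956 and 0.267). The defining markers Adgre1 and Ptprc were near the floor of 20, with highest signals of 30.3 and 39.5. Of 4 epithelial markers 4 were tested and 0 called (limma). Krt18 differed by 1.56 (limma adjusted p = 0.185) and Krt8 by 0.20. Cdh1 and Epcam, each well above background on only 2 arrays, differed by 0.47 and -0.02. The summed signal of the epithelial markers was 5354, 3275 and 2727 in experiments 1 to 3 with GapmeR Ntep. With GapmeR control it was 1767, 3750 and 3715, so that it was higher with GapmeR Ntep in experiment 1 only. Of 3 endothelial markers 2 were tested and 0 called (limma; 1 with an unadjusted p under 0.05), at summed signals of 708 to 786 against 539 to 615, and the defining marker Cdh5 did not exceed 22.1. The part of these markers' differences in the values of the G2/M genes was not tested.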

How the data were processed

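Total RNA of 3T3 cells was hybridized to 1-color Agilent mouse arrays, 6 on the same slide. The authors extracted spot intensities with Agilent Feature Extraction 10.7.3.1 (per the submitters' processing notes) and deposited background-subtracted intensities per array, not normalized between arrays, with flags, and a quantile-normalized table floored at 20. Its values differed from those used here by at most 0.011 (log2) at the member probes. The array format in the paper's methods differs from that in the file headers, which were followed.

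Spots of a probe were averaged, arrays quantile normalized, values under 20 set to 20 and log2 values compared with limma 3.58.1 (R 4.3.3, with the data.table package, 1.17.8; lmFit and eBayes, two-sided, unpaired as in the study's methods). A probe was tested where the mean of its brighter group reached 50, with Benjamini-Hochberg adjustment over all of them. No member spot was saturated or an outlier. Of the probes, 31239 were matched to 22942 genes of RefSeq (GRCm38.p6) by accession, symbol or older symbol and probe coordinates were taken as the files give them, in mm9. Pairs of probes of 1 gene were compared as within-array log2 ratios of each probe to the brightest. Named genes are all members, the 4 smallest p-values of each pathway list, 13 regulators set by name and the 5 genes most like Cdk1. Second probes of list genes, Gm5593 and the marker genes were named after their values had been seen. Members and lists were chosen with earlier results of these data known.

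The study's array documentation gives the arrays of a replicate number the same culture day. Residuals of such pairs had correlations of 0.466, 0.300 and 0.254, whereas arrays of different days ranged from -0.327 to 0.126. With 3 arrays a group, the number of arrays limits the precision. The steps were tested on simulated data. Alternatives were the replicate block, 75th percentile scaling, normexp (offset 50), the authors' values, no filter, probes well above background on all arrays, a floor of 50, the methods' t-test, array weights and the omission of arrays.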

Additional observations from a re-analysis of the deposited data

How the results depend on the processing

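Over 16 alternatives and 15 member probes, 221 of 239 values stayed on the same side of the threshold with the same sign, 12 newly passed an adjusted p of 0.05 and 6 turned sign (limma, or the methods' t-test). The probes that newly passed were Ccnb1 at base 532 (6 alternatives) and at base 846 (5) and Cdc25a (1, with array weights, 0.86). The sign turned for Ccnb1 at base 2228 (0.006) and Cdk1 at base 1111 (0.036) with 75th percentile scaling, where the median of all probes was 0.22. Relative to that median both stayed negative, at -0.22 and -0.19. It also turned for Ccnb2 with array weights (-0.001) and when 1 array was left out (-0.098 to 0.233, negative without GapmeR control of experiment 1), and for Cdk1 at base 1111 when 1 array was left out (-0.296 to 0.297, positive at 0.083 without GapmeR control of experiment 3 and at 0.297 without GapmeR Ntep of experiment 2). The number of member probes at an adjusted p of 0.05, 0 in the reported fit, was 2 with the replicate block, with normexp, with probes well above background on all arrays and with a floor of 50, 3 with array weights and 0 to 1 when 1 array was left out. The counts over all probes in the same fits are given below, beside those of the pathway genes. The number past 2-fold and an unadjusted p of 0.01, 1 as reported, was 2 with 75th percentile scaling, 0 to 3 when 1 array was left out and 0 without both arrays of experiment 1, an alternative chosen after seeing the data.

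Of the 90 pathway genes tested, 3 passed in the reported fit. The number was 9 with the replicate block, 10 with normexp, 1 without a filter, 11 with probes well above background on all arrays, 5 with a floor of 50, 0 with the methods' t-test, 36 with array weights, 0 to 3 when 1 array was left out and 1 without both arrays of experiment 1. The counts over all probes moved too, from 1642 of 30990 to 4292 of 30990 with the replicate block. Of the same 30990, 10260 passed with array weights, 2557 with normexp, 2062 with a floor of 50 and 285 with the methods' t-test. With 75th percentile scaling 1218 of 31569 passed, with probes well above background on all arrays 2487 of 22641, and without a filter 564 of 55681. When 1 array was left out 0 to 1403 passed, and without both arrays of experiment 1 it was 865 of 30782. These are counts of probes, whereas those of the pathway lists are of genes. The cause of these moves was not tested.

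For the Ccnb1 ratios to base 2228, leaving out 1 array gave changes of 1.21 to 1.60 (base 532) and 1.00 to 1.28 (base 846), and leaving out both arrays of experiment 1 gave 1.31 and 1.05 (limma adjusted p = 0.101 and 0.0747). Of the member pairs, 2 passed with the replicate block and 0 to 2 when 1 array was left out, and 0 passed without both arrays of experiment 1. The replicate block changed the calls of the single Ccnb1 probes at bases 532 and 846, and of no other member probe or pair. The ratio of Cdk1 at base 2670 to base 1111 turned to 0.071 without both arrays of experiment 1, and that of the Foxm1 probes to -0.132 and -0.004 without GapmeR control of experiment 1 and 3 and to -0.231 without GapmeR Ntep of experiment 2, in a range up to 0.337. The Ntep probe ranged from -1.055 to 0.128 when 1 array was left out, positive without GapmeR Ntep of experiment 2, and was -1.13 without both arrays of experiment 1. Signals near background limit the Cdk1 probes at bases 1130 and 2670.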
